A study of Mus musculus with 14 samples.

Results

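The cytosolic ribosomal protein genes are the genes for the proteins of the large and small subunits of the ribosome that translates nuclear-encoded mRNA. They were taken as every entry of the expression tables whose symbol is Rpl, Rplp or Rps followed by a number and at most 1 letter and 1 further digit, together with Rpsa, and without the Rps6k kinases or names ending in -ps. This gave 86 of 22564 entries, of which 51 belong to the large subunit and 35 to the small subunit. The Ensembl IDs of 84 have the same name in GENCODE M21, and Rps4y2 is there named Rps4l. Rps3a2, Rps3a3 and Rps4y2 have no coding sequence there, so these entries are not shown to encode a ribosomal protein. The entry named Rpl24 has the ID of Zbtb11, its neighbour on chromosome 16, so its values are those of an entry named Rpl24 and not shown to be of that gene. The study asked what the loss of Mettl3, the catalytic subunit of the complex that writes N6-methyladenosine (m6A) on mRNA, does to liver mRNA. Expression was measured in 8 libraries and m6A in 6 immunoprecipitation (IP) libraries, all from C57BL/6 mice aged 8 weeks. For each genotype there were 1 input and 1 IP library of male primary hepatocytes, 2 of each kind of male liver, and 1 RNA-seq library of female liver, without IP. Mice labelled cKO carried floxed Mettl3 alleles (Mettl3 fl/fl) and a Cre transgene under the Albumin promoter (Alb-cre), which is active in hepatocytes, so the other cells of the liver keep Mettl3. The methods give the mice labelled WT as Alb-cre animals without the floxed Mettl3 alleles. The genotype tag of the female library titled WT also says Mettl3 cKO, and the title was followed.

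Each ribosome holds 1 copy of nearly every ribosomal protein, bound to ribosomal RNA. The large subunit joins amino acids at the peptidyl transferase centre and releases the chain through the exit tunnel, while the small subunit holds the mRNA and checks codons. Many ribosomal protein mRNAs begin with a C followed by a run of pyrimidines, the 5′ terminal oligopyrimidine (TOP) motif, through which growth signals set their translation. Several of these genes also carry small nucleolar RNAs (snoRNAs), guides for the modification of ribosomal RNA, in their introns. In liver the expression of this gene family is known to move with growth, feeding and regeneration.

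The libraries differed in depth and in label checks. The estimated fragments on genes ranged from 1736710 to 10909086 per expression library. Mettl3 was at 3.44 FPKM (fragments per kilobase of transcript, scaled to the mapped fragments) in the hepatocytes labelled WT and 2.91 in those labelled cKO. It was at 8.43 and 10.6 FPKM in the male livers labelled WT, against 26.3 and 14.7 in those labelled cKO, and at 29.7 and 72.3 FPKM in female liver, so no lower in any liver labelled cKO. The cause was not tested, and genotypes are given as the labels have them. Alb, the albumin gene, was listed at 0 in the female liver labelled WT and was at 12968 FPKM in the one labelled cKO, and at 6112 to 25024 FPKM in the other 6 libraries, so a library on which each female difference rests is anomalous for a defining hepatocyte gene. The ribosomal protein genes took 18.1% of all FPKM in the female liver labelled cKO and 1.18% to 5.37% in the other 7 libraries. Mitochondrial genes took 15.5% and 17.6% of FPKM in the male livers labelled WT and 21.9% and 28.0% in those labelled cKO. Nothing says that replicates came from separate animals, so the p-values measure the spread between these libraries.

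Pyrimidine runs were counted at the start sites. Of the 86 genes, 63 had a start region in RefSeq (GRCm38.p6). A run of at least 5 pyrimidines (C or T, read on the strand of the gene, beginning with C within 10 bases of an annotated start) was found in 39 of them, 61.9%, against 33.8% of the 27025 genes with such a region and 36.7% of the 8229 tested in male liver. The share was 24 of 39 in the large subunit and 15 of 24 in the small subunit. Such a run need not begin at the first transcribed base and can lie wholly before it, so the count is not one of TOP motifs, and the difference was not tested. Of the genes with a start region, 31 rose in male liver and 20 of these held a run, while 29 did not pass the test there and 16 of these held one. The windows hold 15 bases before the start and the first 15 transcribed bases on the strand of the gene, with the run in capitals. Rpl38, Rpl28, Rps10, Rps24 and Rps27 are shown because they hold a run that lies at or across the start, and Rplp0 and Rpl10 because they hold none. They lie at chr11:114668565-114668594 (+), chr7:4792950-4792979 (+), chr17:27635230-27635259 (-), chr14:24490663-24490692 (+), chr3:90213634-90213663 (-), chr5:115559452-115559481 (+) and chrX:74270801-74270830 (+), in that order.
Rpl38: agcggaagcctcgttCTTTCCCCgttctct
Rpl28: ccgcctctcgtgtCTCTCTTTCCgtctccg
Rps10: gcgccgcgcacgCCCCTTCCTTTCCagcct
Rps24: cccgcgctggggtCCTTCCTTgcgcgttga
Rps27: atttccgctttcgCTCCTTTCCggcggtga
Rplp0: gtcttcgggtttcgaggaccgcctggttct
Rpl10: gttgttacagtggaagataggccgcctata

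The level of the family was measured in each library first. In hepatocytes the median gene of the family was at 40.8 (WT) and 42.3 FPKM (cKO). In male liver the median was 49.9 and 60.5 FPKM in the libraries labelled WT, and 167 and 218 in those labelled cKO. In female liver it was 163 (WT) and 1269 FPKM (cKO). Summed over the 86 genes, the FPKM took 1.93% and 1.18% of the total in hepatocytes (WT, cKO), 1.46% and 1.58% in the male livers labelled WT, 4.66% and 5.37% in the male livers labelled cKO, and 3.53% and 18.1% in female liver (WT, cKO). The share was thus lower in the cKO library in hepatocytes and higher in the cKO libraries in both sets of livers. The 3 tables were normalized separately. Of the 86 genes, 76 reached 100 FPKM in the female liver labelled cKO, 57 and 70 in the male livers labelled cKO, and 3 to 63 in the other libraries.

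**Figure D1:**
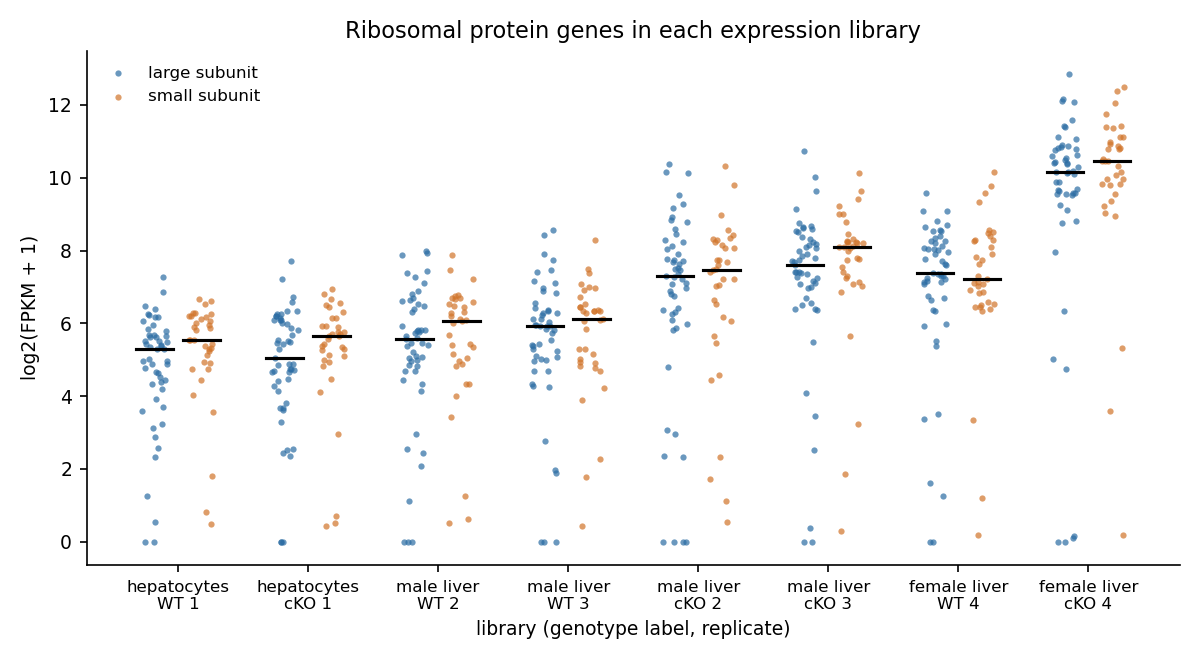
Level of each ribosomal protein gene in the 8 expression libraries, on the scale log2(FPKM + 1), with large subunit genes in blue and small subunit genes in orange; each point is 1 gene and each black bar the median of a subunit. The points of the female liver labelled cKO lie highest, with a median of 1269 FPKM over both subunits, and those of the 2 male livers labelled cKO lie above those labelled WT.

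The most abundant gene was Rplp1, a P-stalk protein, in the hepatocyte libraries (154 and 208 FPKM, WT and cKO), in 1 male liver labelled WT (254 FPKM, replicate 2) and in 1 labelled cKO (1700 FPKM, replicate 3). Rpl13a, a large subunit protein also known from a silencing complex of inflammatory mRNA, was the most abundant in the other male livers (379 FPKM in WT replicate 3 and 1321 in cKO replicate 2) and in the female liver labelled cKO (7375 FPKM, the 12th highest of all genes). Rps27, a zinc-finger protein of the small subunit, led in the female liver labelled WT with 1145 FPKM. Over the 8 libraries, the 5 highest means of the large subunit were those of Rpl13a, Rplp1, Rpl32, Rpl26 and Rpl28, and those of the small subunit were Rps24, Rps15, Rps26, Rps16 and Rps29. At the other end, Rpl10l, the retrogene of Rpl10 known from testis, was listed at 0 in all 8 libraries. Rpl3l, the paralogue of Rpl3 known from muscle, reached at most 0.283 FPKM, and Rpl39l, known from testis, was above 0 in 2 libraries (0.438 and 1.40 FPKM).

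The male livers gave the only replicated comparison. Of the 82 ribosomal protein genes tested there, 41 rose in the livers labelled cKO and 0 fell, by limma on log2(FPKM + 1) with Benjamini-Hochberg adjustment at 0.05. Over all 10937 genes tested, 3.68% were called higher and 1.5% lower. The other 4 members, Rpl10l, Rpl3l, Rpl39l and Rps4y2, did not average 1 FPKM and were not tested. The median log2 difference of the family (cKO minus WT) was 1.73 (quartiles 1.29 and 2.01) beside 0.42 over all genes. At an unadjusted p under 0.05, 68 of the 82 were higher and 0 lower. In 71 of the 82 both cKO livers lay above both WT livers, which held for 44.8% of all genes tested. In bulk liver, more cells that express these genes and more of their RNA per cell cannot be told apart. The 41 calls rest on all 4 libraries, since leaving out any 1 of them left 0 calls among all genes, with a family median between 1.51 and 1.94. Under median-ratio scaling, which took the median of all genes to -0.01, 18 of the 82 were called higher and 0 lower, with a family median of 1.21, and the calls over all genes went from 403 higher and 164 lower to 167 higher and 292 lower.

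**Figure D2:**
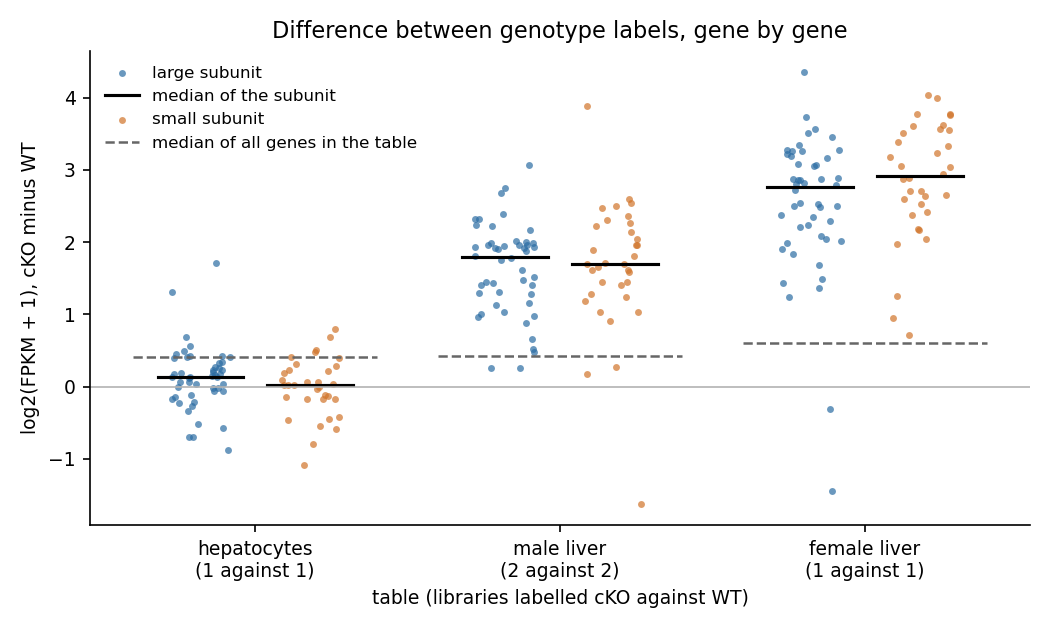
Difference in log2(FPKM + 1) between libraries labelled cKO and WT for each ribosomal protein gene in hepatocytes (1 against 1), male liver (2 against 2) and female liver (1 against 1); points are genes, black bars subunit medians and dashed lines the median of all genes in that table. The family medians are 0.06, 1.73 and 2.82, against 0.41, 0.42 and 0.61 over all genes.

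Of the 3 proteins of the P stalk, which recruits elongation factors, 2 rose. Rplp0, the base of the stalk, was at 49.4 and 76.7 FPKM in the WT livers and 484 and 333 in the cKO livers, a log2 difference of 2.69 ± 0.37 (SE, limma adjusted p = 0.0171). Rplp1 went from 254 and 345 FPKM to 1124 and 1700 (2.22 ± 0.35, limma adjusted p = 0.0227). Both genes were higher in each cKO liver than in each WT liver. Rplp2, which pairs with Rplp1 on the stalk, was at 46.4 and 54.9 against 134 and 137 FPKM and did not pass (1.41 ± 0.32, limma adjusted p = 0.0533).

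Rpl5 and Rpl11 form with the 5S ribosomal RNA the particle that also binds Mdm2 when ribosome assembly stalls. Rpl5 rose from 32.9 and 33.6 FPKM to 107 and 169 (log2 difference 1.98 ± 0.36, limma adjusted p = 0.033). Rpl11 was at 154 and 138 FPKM against 352 and 301 and did not pass (1.16 ± 0.31, limma adjusted p = 0.0765), although its groups did not overlap.

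None of the 4 proteins listed for the peptidyl transferase centre and the exit tunnel passed the limma test, with log2 differences between 0.98 and 1.61. Rpl3, which reaches towards the catalytic centre, was at 30.5 and 24.97 FPKM in the WT livers and 55.1 and 134 in the cKO livers (1.61 ± 0.47, limma adjusted p = 0.0956). Rpl4, which lines the tunnel, was at 172 and 176 against 443 and 410 FPKM (limma adjusted p = 0.0553). Rpl10, needed for the last step of large subunit maturation, was at 117 and 169 against 180.4 and 432 FPKM (limma adjusted p = 0.248). In all 4 genes, Rpl8 included, both cKO livers were above both WT livers.

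The largest differences of the large subunit were those of Rpl38 and Rpl39. Rpl38, a small protein linked in mice to the translation of Hox mRNA, was at 27.7 and 32.6 FPKM in the WT livers and 210.3 and 320 in the cKO livers (3.07 ± 0.35, limma adjusted p = 0.0113). Rpl39, an X-linked gene for a protein of the exit tunnel, was at 19.02 and 17.8 FPKM against 111 and 151 (2.75 ± 0.34, limma adjusted p = 0.0138). Among genes past the threshold, Rplp0, Rplp1, Rpl9, Rpl34, Rpl13 and Rpl12 completed the 8 highest, with differences between 2.17 and 2.33 for the last 4. Rpl23a, named after its values were seen, had a difference of 2.39 ± 0.58 without passing (limma adjusted p = 0.0632). Of the 4 X-linked genes of the family, Rpl39, Rpl36a and Rps4x rose and Rpl10 did not pass.

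In the small subunit, Rps12 stood highest in the family. Rps12, a protein of the head of the subunit, was at 32.2 and 34.4 FPKM in the WT livers and 499 and 509 in the cKO livers. The log2 difference was 3.88 ± 0.31 (limma adjusted p = 0.00262), with both cKO livers far above both WT livers. The next small subunit gene, Rps10, which binds the head of the subunit, was at 28.2 and 31.4 against 128 and 268 FPKM (2.60 ± 0.42, limma adjusted p = 0.0243). Rps23, which sits beside the decoding centre, was at 42.0 and 38.2 against 191 and 296 FPKM (2.54 ± 0.35, limma adjusted p = 0.0169). Rps24, required for the processing of 18S ribosomal RNA, was at 148 and 178 against 890.3 and 796 FPKM (2.37 ± 0.31, limma adjusted p = 0.0149). Rps20 and Rps29 were also among the 8 highest, with log2 differences of 2.49 and 2.48.

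Of 6 further small subunit genes listed by role, 3 rose. Rps6, the substrate of the S6 kinases, was at 67.7 and 80.0 FPKM in the WT livers and 283 and 298 in the cKO livers (1.97 ± 0.31, limma adjusted p = 0.0222). Rpsa, also known as the laminin receptor, was at 72.3 and 90.9 against 319 and 317 FPKM (1.96 ± 0.31, limma adjusted p = 0.0237). Rps19, mutated in Diamond-Blackfan anaemia, was at 39.7 and 29.5 against 98.7 and 130.3 FPKM (1.70 ± 0.35, limma adjusted p = 0.0436). Rps2, Rps3 and Rps14 had differences from 1.18 to 1.81 without passing, and in each of them the cKO livers lay above the WT livers.

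**Figure D3:**
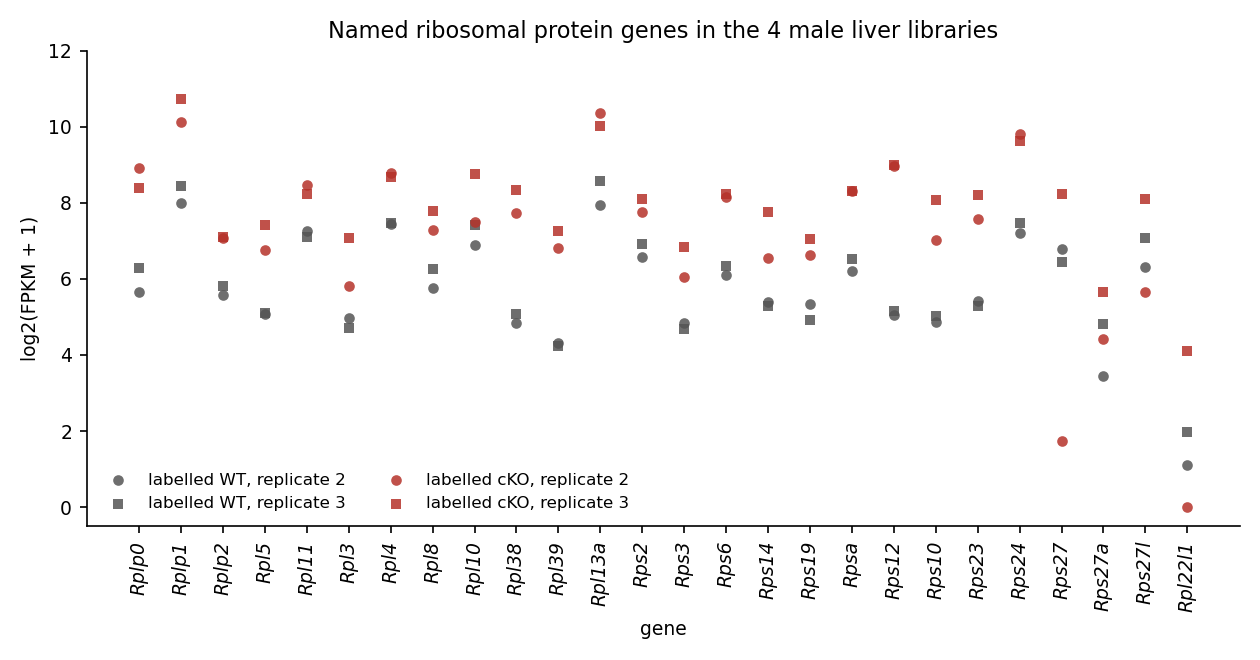
Level of 26 ribosomal protein genes in the 4 male liver libraries, on the scale log2(FPKM + 1); grey marks are libraries labelled WT and red marks libraries labelled cKO, with circles for replicate 2 and squares for replicate 3. The red marks lie above both grey marks for 22 of the genes, and overlap them for Rps27, Rps27a, Rps27l and Rpl22l1.

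In 11 of the 82 genes the 2 groups of male livers overlapped, and in 4 of these the cKO liver replicate 2 was below both WT livers. Rps27 was at 109 and 85.6 FPKM in the WT livers, and at 2.31 and 301 in the cKO livers, so its log2 difference of -1.62 ± 1.78 rests on 1 library and is 1.63 without the cKO liver replicate 2. Rps27l, its p53-responsive paralogue, was at 78.7 and 135 against 49.2 and 273 FPKM (0.17 ± 0.75). Rpl22l1, the paralogue that takes the place of Rpl22 in some cells, was at 1.15 and 2.90 FPKM in the WT livers and listed at 0 and at 16.1 in the cKO livers. Rpl22 itself was at 41.1 and 31.7 against 79.1 and 126 FPKM (1.44 ± 0.38, limma adjusted p = 0.0734). Rpl7l1, a paralogue of Rpl7 in early large subunit assembly, was at 4.81 and 5.85 against 4.15 and 10.0 FPKM, while Rpl7 was at 54.8 and 56.9 against 84.2 and 143. Rps27a, made as a fusion with ubiquitin, was at 9.81 and 27.3 against 20.5 and 49.1 FPKM. The entry named Rpl24, with the ID of Zbtb11, stayed between 0.106 and 4.88 FPKM in all 8 libraries. The ID that GENCODE M21 names Rpl24, a protein at the interface of the subunits, stands in the tables as RPL24, outside the rule, at 78.6 and 2.21 FPKM in the WT livers and 3.4e-07 and 125 in the cKO livers. It shares 1 locus of the tables with Zbtb11 and others, as 22 of the 86 genes share theirs. The counting may divide fragments among the entries of a shared locus or among near-identical copies, so such values are uncertain, and this was not tested. The 25 entries named as -ps pseudogenes, which are not in the family, held between 0.548% and 2.14% of its summed FPKM.

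Other genes of the ribosome and of its regulation were followed in the same fit. Of the 4 ribosomal proteins whose symbols lie outside the rule, 2 rose and 0 fell, among them Gnb2l1 (the scaffold RACK1), with a log2 difference of 2.11. Of 19 other mRNAs known to carry a TOP motif 2 rose and 0 fell, with a median of 1.29. Of 30 ribosome biogenesis genes tested, 3 rose and 0 fell (median 1.04), among them Nhp2, a core protein of H/ACA particles, at 6.16 and 4.07 FPKM against 39.7 and 36.9. Of 18 regulators of ribosome synthesis, Myc and Eif4ebp1 rose and 0 fell (median 0.43). Myc, a transcription factor that drives ribosome synthesis, was at 6.88 and 5.46 FPKM in the WT livers and 45.2 and 31.5 in the cKO livers (2.44 ± 0.38, limma adjusted p = 0.021). Of 9 genes of ribosome-associated quality control only Pelo rose (median 0.50). Of the 76 mitochondrial ribosomal protein genes 3 rose (median 0.64). Of 53 tested genes with symbols starting Eif1 to Eif6, taken for the initiation factors, 2 rose (median 0.61). These were Eif1a and Eif4ebp1, which is not itself an initiation factor and is also among the regulators above. Both shares are near the 3.68% called higher over all genes. The ribosomal protein genes are short, with a median coding length of 468 nt over the 83 with one. The 1375 other tested genes with a coding length of at most 600 nt had a median of 0.48, with 78 called higher and 27 lower.

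Markers of several other liver cells moved in the same libraries. The summed FPKM of the 10 Kupffer cell and macrophage markers ranged from 186 to 219 in the male livers labelled WT and from 410.2 to 615 in those labelled cKO, with 10 of 10 above 0 in log2 difference and Marco called higher. The 5 cholangiocyte markers summed to 18.02 to 56.0 FPKM in WT and 160 to 232 in cKO, of which Spp1 alone was at 53.8 and 16.3 in WT and 218 and 148 in cKO, and 0 of the 4 tested were called. The 8 stellate cell markers summed to 82.4 to 87.3 in WT and 210 to 270.2 in cKO, with 8 of 8 above 0 in log2 difference. Of these sums Dcn, the 1 called higher, was alone at 57.1 and 51.3 in WT and 138 and 199 in cKO. Of the 4 neutrophil markers, Ly6g was listed at 0 in every library, and S100a9 rose from a listed 0 in both WT livers to 12.6 and 4.59 FPKM. The 12 hepatocyte markers summed to 32824 to 42949 in WT and 19248 to 22997 in cKO. Alb alone was at 17598 and 25024 in WT and 6112 and 11761 in cKO. Of the 12, 3 were above 0 in log2 difference, the median was -0.75, and 1, Serpina1a, was called lower. The 8 sinusoidal endothelium markers had a median log2 difference of 0.44, beside 0.42 over all genes, and 0 were called. The 7 lymphocyte markers summed to 4.93 and 2.06 in WT and 2.995 and 2.74 in cKO. Of the 5 erythroid markers, Alas2 was called lower, at 26.5 and 26.9 FPKM in WT and 0.94 and 3.58 in cKO. The part of these cells in the differences of the ribosomal protein genes was not tested.

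In female liver, 78 of 82 ribosomal protein genes were at least 2-fold higher in the library labelled cKO and 1 was at least 2-fold lower. Over all 11046 genes of that table, 36.8% were at least 2-fold higher and 11.3% at least 2-fold lower. There is 1 library per genotype, so the differences have no replicate check. The median log2 difference of the family was 2.82 (quartiles 2.22 and 3.27) beside 0.61 over all genes. Median-ratio scaling, which took the median of all genes to 0.03, left 72 genes at least 2-fold higher, with a family median of 2.11, and the split over all genes went from 4068 higher and 1252 lower to 2224 higher and 2304 lower. All 41 genes called higher in male liver were among the 78, which already held 95.1% of the 82.

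Rplp2, Rps12 and Rps19 had the largest female differences. Rplp2 was at 45.0 FPKM (WT) and 938 (cKO), a log2 difference of 4.35. Rps12 went from 136 to 2235 FPKM (4.03) and Rps19 from 89.8 to 1455 (4.00). Rps12 was thus among the highest in both sexes, while Rplp2 had a smaller difference in male liver. The 3 genes within 2-fold were Rpl41, at 99.4 and 79.8 FPKM, Rps27, at 1145 and 1888, and Rps27l, at 336 and 653. The 1 entry at least 2-fold lower was the one named Rpl24 with the ID of Zbtb11, at 2.03 and 0.106 FPKM, and without it 78 of 81 were higher and 0 lower. The entry RPL24 was at 376 and 1544 FPKM (log2 difference 2.04). Across the 81 genes measured in all tables, the male and female differences had a Pearson r of 0.63 and a Spearman rho of 0.53, a description over genes that share libraries. In the same female libraries the Kupffer cell markers summed to 392 FPKM in WT and 1281 in cKO, the neutrophil markers to 29.5 and 433, and the cholangiocyte markers to 37.3 and 243. The stellate cell markers summed to 120 FPKM in WT and 91.3 in cKO, of which Dcn alone was at 79.7 and 42.6. Of these 8 markers 2 were at least 2-fold higher in cKO and 0 lower, with a median of 0.46. Of the 12 hepatocyte markers 6 were at least 2-fold lower in cKO and 1 higher, with a median of -1.02. The part of these cells was not tested.

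In hepatocytes, 2 of 81 ribosomal protein genes were at least 2-fold higher in the library labelled cKO and 1 was at least 2-fold lower, again with 1 library per genotype. Over all 9596 genes of that table, 23.6% were at least 2-fold higher and 13.2% at least 2-fold lower. The family median was 0.06 (quartiles -0.15 and 0.29) beside 0.41 over all genes. This direction depends on the scaling: the family median was -0.30 under median-ratio scaling (0.12 over all genes) and -0.74 when libraries were set to equal FPKM totals without mitochondrial genes (-0.24 over all genes). Under the latter, 0 genes of the family were at least 2-fold higher and 19 at least 2-fold lower. The summed FPKM over all genes was 190480 (WT) and 339949 (cKO).

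The 2 higher genes in hepatocytes were Rpl41, a protein of few residues, at 4.97 FPKM in WT and 18.5 in cKO, and the entry named Rpl24 with the ID of Zbtb11, at 1.37 and 4.88 FPKM. Without that entry 1 of 80 genes was at least 2-fold higher, and RPL24 was at 32.6 and 21.2 FPKM. The 1 lower entry was Rps3a3, at 2.49 and 0.64 FPKM, which has no coding sequence in GENCODE M21 and is named after its value was seen. Among genes that reached 5 FPKM, the lowest differences were those of Rpl21 (8.39 and 4.12 FPKM, log2 difference -0.87), Rps12 (36.9 and 20.9 FPKM, -0.79), Rpl34 (42.4 and 25.6 FPKM, -0.70) and Rpl22l1 (7.73 and 4.38 FPKM, -0.70). Beside Rpl41, the highest were Rps20 (33.8 and 59.5 FPKM, 0.80), Rpl18 (40.9 and 66.7 FPKM, 0.69) and Rps27l (20.5 and 33.7 FPKM, 0.69). Most of the abundant genes lay close together, such as Rps6 at 77.3 and 78.4 FPKM and Rpl3 at 43.9 and 45.9. All 10 Kupffer cell markers were at least 2-fold lower in the library labelled cKO, with a sum of 645 FPKM in WT and 16.2 in cKO and Csf1r at 37.5 and 0.00123 FPKM. So were all 8 sinusoidal endothelium markers, with sums of 219 and 22.4 FPKM. Of the markers averaging 1 FPKM or more, so were 4 of 4 stellate cell, 2 of 2 neutrophil, 1 of 1 cholangiocyte and 1 of 1 lymphocyte markers. Of 2 erythroid markers 1 was at least 2-fold higher and 0 lower, and 10 of 12 hepatocyte markers were at least 2-fold higher. The part of these cells was not tested.

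The difference between male liver and hepatocytes was fitted with limma over all 8 libraries, with a term for each table and genotype. Hepatocytes have 1 library per genotype in a table normalized separately, so the spread in this fit comes from the male livers alone, and the p-values hold only if the single libraries vary like them. On that assumption 5 of 82 ribosomal protein genes had a higher difference in male liver at an adjusted p under 0.05 and 0 a lower one, against 2.46% of all genes called higher. They included Rps12 (4.67 ± 0.53, limma adjusted p = 0.016), Rpl34 (3.02 ± 0.62, limma adjusted p = 0.0466), Rpl39 and Rps26. The family median of this difference was 1.70 beside 0.13 over all genes, and 78 of the 82 were above 0. Between female and male liver, limma called 0 genes of the family (smallest adjusted p = 0.629), with 16 higher and 0 lower at an unadjusted p under 0.05 and a median of 0.99.

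Large and small subunit genes were compared side by side. In male liver 25 of 48 large subunit genes and 16 of 34 small subunit genes rose, with medians of 1.79 (quartiles 1.25 and 1.99) and 1.70 (quartiles 1.32 and 2.21). In female liver 46 of 48 and 32 of 34 were at least 2-fold higher, with medians of 2.76 and 2.92, and in hepatocytes the medians were 0.13 and 0.02. The quartiles of the subunits overlapped in each table. The summed FPKM of the large over the small subunit genes was 1.17 and 1.28 in hepatocytes (WT, cKO), 1.42 and 1.51 in the male livers labelled WT, 1.61 and 1.26 in those labelled cKO, and 1.23 in both female livers. In male liver the WT values lay between the cKO values, so the groups overlapped. With the median gene of each subunit in place of the sum, the ratio was below 1 in all libraries but the female liver labelled WT (1.13).

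**Figure D4:**
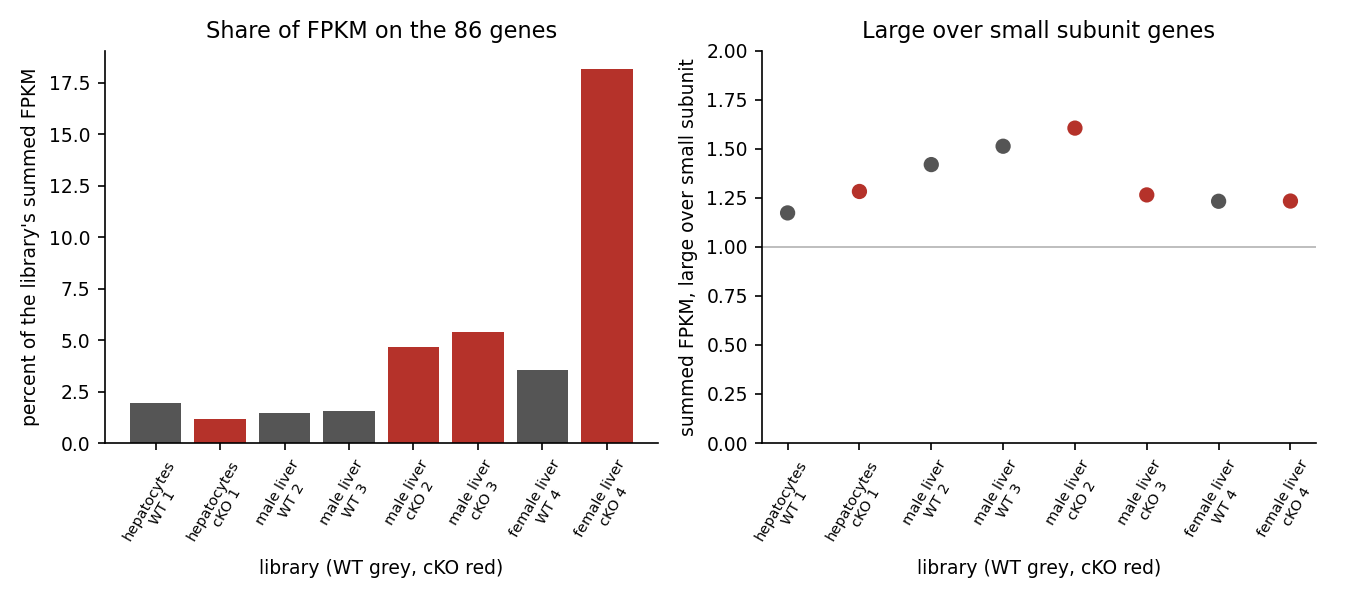
Left, the percent of each library's summed FPKM on the 86 ribosomal protein genes; right, the summed FPKM of the large over the small subunit genes in each library, with libraries labelled WT in grey and cKO in red. The share runs from 1.18% to 18.1%, while the ratio stays between 1.17 and 1.61.

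The m6A IP libraries gave peaks, regions where IP fragments exceed input, called by the authors in each library. In hepatocytes 39 ribosomal protein genes held 53 peaks in the library labelled WT and 33 held 43 in the one labelled cKO. The 33 include Rps3a2 and Rps3a3, which have no coding sequence in GENCODE M21. Among genes of the family at 1 FPKM or more, 48.1% and 38.8% had a peak, against 63.8% and 64.6% of all such genes. In male liver, far fewer peaks were called in all genes, and 8 and 6 ribosomal protein genes had a peak in the libraries labelled WT and 6 and 8 in those labelled cKO. Those are 9.88%, 7.32%, 7.41% and 9.76% of the family at 1 FPKM or more, against 14.4%, 5.51%, 7.8% and 5.36% of all such genes. The large subunit had 27 and 21 genes with a peak in hepatocytes (WT, cKO) and the small subunit 12 and 12. Of the 53 and 43 hepatocyte peaks, 24 and 24 overlapped between the genotype labels by at least 1 bp, or 45.3% and 55.8%, against 35.5% and 35.3% of all peaks. The authors' false discovery rate is at most 5% for 49 of the 53 peaks in the hepatocyte library labelled WT and for 0 peaks of the family in the other 5 libraries. Over all peaks it is so for 16638 of 17175 in that library, 4 of 17277 in the hepatocyte library labelled cKO and 0 in the 4 livers, so the other libraries hold almost no such peak in any gene. For the family's peaks the stated rate is 52.63% or 100% in the WT liver replicate 2 and 100% in the other male livers.

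The peaks that recurred across libraries lay in few genes. Rpl3, Rpl4, Rps12 and 1 further gene held a peak in all 6 IP libraries, and Rpl13a and Rpl7a in 4. Each of these 6 genes hosts at least 1 snoRNA gene of GENCODE M21 on its own strand, as do 30 of the 86 genes of the family, while 36 genes had no peak in any library, 12 of them hosts. In hepatocytes 53.3% of hosts and 41.1% of the other family genes had a peak in WT, but 26.7% and 44.6% in cKO. In the male livers 16.7% to 26.7% of hosts had a peak, and 0% to 3.57% of the others. The share of hosts over all genes was not counted. Of the 9 and 6 peaks of the family in the male livers labelled WT, 6 and 4 lay within 500 bp of a snoRNA gene, as did 5 of 6 and 7 of 9 in those labelled cKO, against 0.99%, 1.43%, 1.05% and 1.86% of all peaks. In hepatocytes these were 13 of 53 and 7 of 43 peaks, against 0.256% and 0.208% of all peaks. Fold enrichment, the ratio of IP over input, had a median of 343 and 726 over the peaks of the family in the male livers labelled WT and 170 and 65.8 in those labelled cKO, while the medians of all peaks were 3.75, 3.75, 4.90 and 6.68. In hepatocytes the family was below all peaks, with medians of 12.4 against 28.5 (WT) and 6.46 against 14.9 (cKO).

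**Figure D5:**
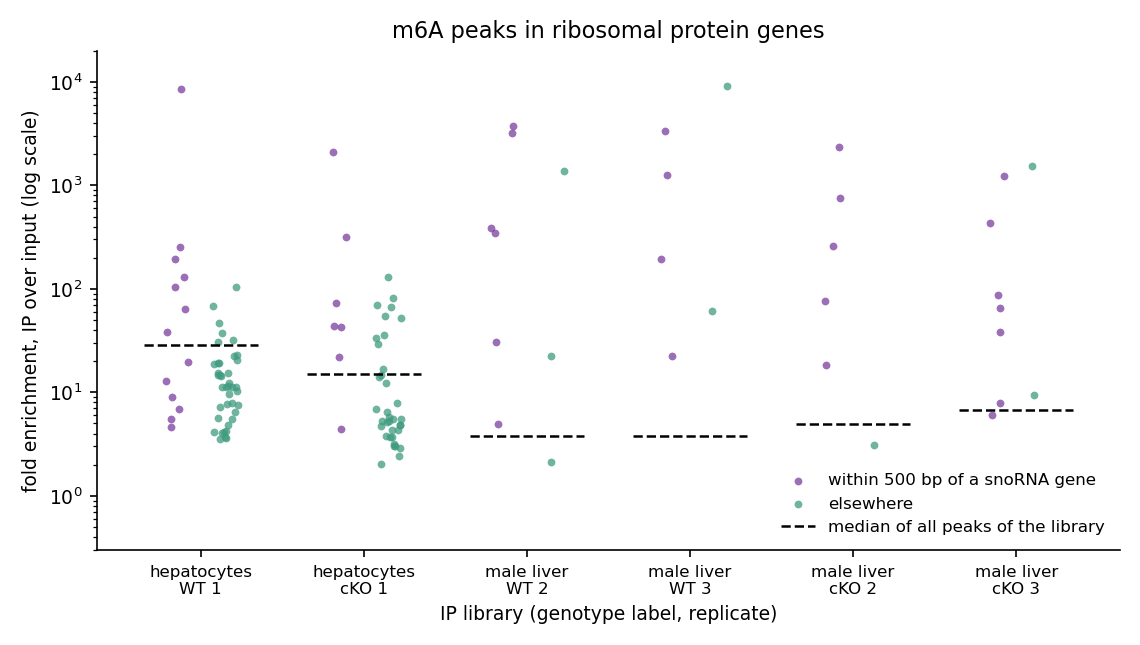
Fold enrichment (IP over input, log axis) of each m6A peak in the ribosomal protein genes in the 6 IP libraries, in violet within 500 bp of a snoRNA gene and in green elsewhere; the dashed line is the median of all peaks of that library. In male liver most points lie above the dashed line, and in hepatocytes most of the green points lie below it.

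Some of these peaks cover exactly 1 exon. In hepatocytes 24 of 53 (WT) and 9 of 43 (cKO) peaks of the family did so. In the male livers 5 of 9, 4 of 6, 4 of 6 and 6 of 9 peaks of the family did so (WT replicates 2 and 3, cKO replicates 2 and 3). Of the wholly coding ones found in at least 3 libraries, 4 follow with 1 further Rpl3 exon, on the strand of the gene, in GRCm38 and with each GGAC, the core of the motif that the writer complex prefers, in capitals. They are Rpl3 exon 9 at chr15:80077987-80078106 (-), Rpl3 exon 8 at chr15:80078331-80078426 (-), Rpl4 exon 2 at chr9:64174824-64174995 (+), Rpl4 exon 4 at chr9:64175584-64175722 (+) and Rpl38 exon 3 at chr11:114671734-114671856 (+).
Rpl3 exon 9: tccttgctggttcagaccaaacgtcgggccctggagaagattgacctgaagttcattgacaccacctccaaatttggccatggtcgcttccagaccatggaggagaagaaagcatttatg
Rpl3 exon 8: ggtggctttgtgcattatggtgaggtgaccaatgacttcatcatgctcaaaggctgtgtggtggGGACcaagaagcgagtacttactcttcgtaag
Rpl4 exon 2: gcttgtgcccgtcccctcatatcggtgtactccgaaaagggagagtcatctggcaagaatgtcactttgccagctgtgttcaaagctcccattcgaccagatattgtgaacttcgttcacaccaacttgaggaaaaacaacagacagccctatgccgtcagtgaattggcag
Rpl4 exon 4: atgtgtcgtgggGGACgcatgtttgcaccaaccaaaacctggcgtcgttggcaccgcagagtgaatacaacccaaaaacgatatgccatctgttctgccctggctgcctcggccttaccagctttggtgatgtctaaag
Rpl38 exon 3: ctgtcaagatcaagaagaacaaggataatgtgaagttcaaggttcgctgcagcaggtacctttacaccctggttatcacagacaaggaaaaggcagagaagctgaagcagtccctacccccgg

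The peak on Rpl4 exon 2, which ends 53 bp from a snoRNA gene, had a fold enrichment of 3197 and 1257 in the male livers labelled WT and 429 in the cKO liver replicate 3. The peak on Rpl4 exon 4, 63 bp from Snord16a, had 129 and 43.8 in hepatocytes (WT, cKO) and 762 in the cKO liver replicate 2. Each male liver library thus held a peak on 1 of the 2 exons. Rpl3 exon 9 had a fold enrichment of 389 in the WT liver replicate 2 and 262 and 65.8 in the cKO livers, and Rpl3 exon 8 had 253 and 316 in hepatocytes, 72 bp from Snord83b. Rpl3 exon 2, with no snoRNA gene within 500 bp, had the highest value of the family, 9196 in the WT liver replicate 3, and 1541 in the cKO liver replicate 3. Rpl38, which hosts no annotated snoRNA, had 68.1 and 130 in hepatocytes and 61.7 in the WT liver replicate 3 on its exon 3. Such peaks were thus found in libraries of both labels.

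Rps12 held peaks that span snoRNA genes in its introns. The peak over Gm23130, a snoRNA gene, had a fold enrichment of 192 and 73.2 in hepatocytes (WT, cKO), 343 and 196 in the male livers labelled WT, and 77.0 and 87.1 in those labelled cKO. Its value was lower in each library labelled cKO than in each labelled WT of the same cells. Not all peaks of the family went this way, such as Rpl38 exon 3 in hepatocytes (68.1 in WT, 130 in cKO). The FPKM of Rps12 was higher in each male liver labelled cKO, but lower in the hepatocytes labelled cKO (36.9 in WT, 20.9 in cKO). Fold enrichment is a ratio over input, so it also depends on the input level, and that part was not tested. Rpl13a held 1 peak of the same extent, 470 bp over Snord32a, in 4 libraries, with a fold enrichment of 19.8 in the hepatocyte library labelled WT, 30.4 and 22.5 in the male livers labelled WT and 7.89 in the cKO liver replicate 3. Fold enrichment carries no replicate test here.

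GGAC was counted in the peaks of the family and in all peaks, and the difference was not tested. In the 100 bp around the peak centre, on the strand of the gene, it was found in 20 of 53 (37.7%) and 15 of 43 (34.9%) of the family's peaks in hepatocytes (WT, cKO), against 41.2% and 40.3% of all peaks. In male liver it was in 1 of 9 and 0 of 6 peaks in the libraries labelled WT and 1 of 6 and 1 of 9 in those labelled cKO, against 36.3% to 37.5% of all peaks. These are counts of letters in a window and not sites. In hepatocytes, where 31 of the 53 WT peaks and 26 of the 43 cKO peaks were centred in coding sequence, 15 and 10 were centred in 3′ untranslated regions.

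Rpl17, a protein at the exit of the tunnel, was the other gene with a peak in all 6 libraries. The peak covers its exon 6, 80 bp from a snoRNA gene, and had a fold enrichment of 8559 and 2104 in hepatocytes (WT, cKO), 3768 and 3333 in the male livers labelled WT, and 2370 and 1244 in those labelled cKO. It had the highest fold enrichment of the family in 4 of the 6 libraries, and Rpl3 exon 2 in the other 2. The value was lower in each cKO library than in each WT library of the same cells. Peaks of the family found in both hepatocyte libraries went both ways. Rpl26 exon 4 was at 14.7 (WT) and 52.6 (cKO), and Rpl41 exon 4 at 19.4 and 2.92. In expression, Rpl17 was at 35.7 and 36.7 FPKM in the male livers labelled WT and 117 and 89.999 in those labelled cKO (1.48 ± 0.33, limma adjusted p = 0.0526).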

How the data were processed

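Reads were trimmed with cutadapt 1.9.3 and aligned with HISAT2 2.0.4 to mm10 by the authors, per the labels. The deposited FPKM come from the authors' Cufflinks and Cuffdiff, in 3 tables normalized separately. The deposited count columns are signal scaled by 1 factor per library and served for depth and as an alternative. Fold enrichment (a ratio of IP over input), a score of -10 log10 p and the false discovery rate in percent are as the authors' MACS gave them, per library.

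The members and all lists were chosen with earlier results of these data known. Male liver was fitted with limma 3.58.1 (R 4.3.3, variance trend) on log2(FPKM + 1) for genes averaging 1 FPKM or more, which 82 members did. Without replicates, 2-fold on that scale counted as called. The script was tested on simulated data. Named genes are the 8 highest and 4 lowest male differences per subunit (past the threshold where enough passed), the 5 highest means per subunit, the 4 largest differences each way in each other table at 5 FPKM, the 8 with most or strongest peaks, a list by role, and the 3 largest changes of accompanying lists. Alternatives were other pseudocounts, filters, scalings, columns, models and left-out libraries. Peaks were compared with bedtools 2.31.1 and placed on GENCODE M21 (GRCm38), and start sequences are from RefSeq (GRCm38.p6). Authors' comparison columns were not used. The values of a few genes are not reported here.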

Additional observations from a re-analysis of the deposited data

Results flagged for a closer look

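In a limma fit over all 8 libraries, the interaction term gave a larger difference between cKO and WT libraries in male liver than in hepatocytes for 5 of the 82 ribosomal protein genes at an adjusted p under 0.05, against 2.46% of all genes. Hepatocytes have 1 library per genotype, so the spread comes from the male livers alone and the p-values assume that the hepatocyte libraries vary like them. This test was chosen after seeing the data. The cause was not tested.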

How the results depend on the processing

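The 41 ribosomal protein genes called higher in male liver became 37 to 49 with a pseudocount of 0.1, a minimum of 5 FPKM, equal totals without mitochondrial genes, array weights or 8 libraries with a term per group. They became 62 with the deposited count columns, 20 without the variance trend, 18 with median-ratio scaling, 1 without a filter and 0 with all 8 libraries and the table as a block, where 67 were higher at an unadjusted p under 0.05. Leaving out 1 library gave 0 to 0 calls. The number called lower was 0 in every alternative. The family median stayed between 1.21 (median-ratio scaling) and 1.94. With the replicate number as a block 62 genes were called, but the numbers are shared only as names: the deviations of replicates 2 and 3 correlated at 0.126 over 10937 genes between the labels. In female liver the median was 2.11 under median-ratio scaling and 2.34 with equal totals, and the genes at least 2-fold lower were 2 under median-ratio scaling or no filter and 0 at a minimum of 5 FPKM. In hepatocytes the median turned to -0.30 and -0.74 under these scalings, and the genes at least 2-fold lower were 5 and 19. They were 2 with a pseudocount of 0.1 or the count columns and 0 at 5 FPKM, and those at least 2-fold higher were 1 at 5 FPKM and 0 with equal totals. The large over small ratio, cKO over WT, went to 0.77 in hepatocytes and 0.72 in female liver with medians in place of sums.

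Among single genes in male liver, the sign turned under median-ratio scaling for the entry named Rpl24 (-0.16), Rps27l (-0.35), Rpl35a (-0.038), Rps3a2 (-0.041) and Rpl7l1 (-0.19), and with a pseudocount of 0.1 for Rpl22l1 (-0.60). Over the fits that leave out 1 library, the difference ranged from -1.53 to 2.56 for Rpl22l1, from -0.021 to 0.53 for Rpl24, from -0.56 to 1.88 for Rpl41, from -0.29 to 0.81 for Rpl7l1, from -4.88 to 1.63 for Rps27, from -1.05 to 1.40 for Rps27l and from -0.30 to 0.85 for Rps3a2. The cause was not tested. At a false discovery rate of at most 5%, 49 peaks remained in the hepatocyte library labelled WT (16638 of 17175 over all genes) and 0 in each of the other 5, where 4 (hepatocytes labelled cKO) and 0 (each liver) remained over all genes. At a fold enrichment of at least 5 the hepatocyte library labelled cKO kept 28 of 43, against 15695 of 17277 over all genes. Asking for an overlap over 50% of the shorter peak gave 23 shared peaks in hepatocytes in place of 24.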
